A study of Mus musculus with 5 samples.

Results

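Expression of the C1q, lysozyme and phagocytic clearance genes was examined in germinal centre B cells sorted from mouse spleen. The 10 genes are C1qa, C1qb, C1qc, Mertk, Axl, Lyz1, Lyz2, Mpeg1, Maf and Cd68, and every probe set whose platform annotation names 1 of them was taken. This gave 20 probe sets of the 45101 in the table, for 10 of the 18194 genes with a probe set of 1 symbol. The genes were chosen by their function in tingible body macrophages with their signals on these same arrays, REL against WT, already known. The difference between the groups is therefore described here and was not tested for them. REL denotes 2 arrays of eGFP+ germinal centre B cells from relfl/flCg1-Cre mice, in which loxP sites flank both copies of Rel, which encodes c-Rel, a subunit of NF-kB. WT denotes 3 arrays of eGFP- germinal centre B cells from littermates that carry Cg1-Cre alone. All mice were C57BL/6, 12 weeks old, and had received sheep red blood cells 7 days before the sort. Both groups carry the Cre transgene, which acts in B cells that transcribe the Cg1 constant region, and the groups differ in the eGFP gate as well as in genotype, so gate and genotype cannot be told apart.

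C1q is the recognition part of the first complement component and is assembled from the A, B and C chains encoded by C1qa, C1qb and C1qc. It binds immune complexes and dying cells. In germinal centres, B cells that fail selection die by apoptosis and are engulfed by tingible body macrophages, which take up the debris through receptors such as Mertk and Axl and digest it in lysosomes with enzymes such as lysozyme. Macrophages, and not B cells, are known as the main source of C1q in the spleen.

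The arrays gave MAS5 signals, the summary that the scanner software makes of a set of matched and mismatched probes, with a 2% trimmed mean of 500 on every array. The median signal was 30.1 on REL 2, the lowest, and 40.7 to 54.6 on the other 4. The ratio of the 3′ to the 5′ Actb probe set, a sign of RNA quality, was 2.45 on WT 3 and 1.58 to 1.73 on the others, and WT 3 was the lowest of the 5 arrays for C1qb, Mertk, Lyz1, Lyz2 and Mpeg1. The part of RNA quality in those values was not tested. Leaving out WT 3, the lowest array for these genes, cannot undo a separation of the groups, so it is no check on this. Signals of Rel itself were 18.6 and 85.2 in REL and 492, 134 and 206 in WT, so that the groups did not overlap. Markers of the labelled cell type were bright on every array. The summed signal of 7 B cell genes ranged over 50767 to 57238 in REL and 49541 to 56075 in WT, and that of 8 germinal centre genes over 31031 to 34076 in REL and 31479 to 40002 in WT. A signal of 23.1, below which the lowest 40% of probe sets lay by mean log2 value over the arrays, is used as the level of dim probe sets. Whether the arrays stand for separate animals is not in the labels, and the spread between arrays may be technical.

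The upstream sequences of 2 pairs of neighbouring genes are shown because C1qb and C1qc both separated the groups and because Lyz1 and Lyz2 are close copies. Promoters are from RefSeq (GRCm38.p6), which matched 8 of the 10 genes in the table used (not C1qa and Maf). Each run holds the 250 bases before the annotated start, 5′ to 3′ on the minus strand, and the capitals mark GGAAGT, the core of ETS factor motifs such as that of PU.1, or its reverse complement. The C1q promoters lie at chr4:136886201-136886450 (C1qb) and chr4:136892915-136893164 (C1qc), and the lysozyme promoters at chr10:117282273-117282522 (Lyz2) and chr10:117292869-117293118 (Lyz1).
C1qb: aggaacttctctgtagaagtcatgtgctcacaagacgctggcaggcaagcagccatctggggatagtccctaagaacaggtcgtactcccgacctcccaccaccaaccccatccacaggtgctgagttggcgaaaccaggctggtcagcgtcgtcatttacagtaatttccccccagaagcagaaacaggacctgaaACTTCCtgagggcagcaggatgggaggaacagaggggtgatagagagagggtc
C1qc: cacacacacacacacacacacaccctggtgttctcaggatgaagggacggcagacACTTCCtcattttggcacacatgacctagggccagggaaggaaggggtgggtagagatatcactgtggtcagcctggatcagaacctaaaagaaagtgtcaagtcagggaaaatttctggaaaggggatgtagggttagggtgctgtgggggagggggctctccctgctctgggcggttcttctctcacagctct
Lyz2: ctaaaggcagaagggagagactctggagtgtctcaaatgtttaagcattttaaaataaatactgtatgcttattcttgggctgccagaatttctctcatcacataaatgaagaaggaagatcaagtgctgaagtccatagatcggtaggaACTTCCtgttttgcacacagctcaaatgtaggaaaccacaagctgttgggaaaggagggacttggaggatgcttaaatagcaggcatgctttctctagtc
Lyz1: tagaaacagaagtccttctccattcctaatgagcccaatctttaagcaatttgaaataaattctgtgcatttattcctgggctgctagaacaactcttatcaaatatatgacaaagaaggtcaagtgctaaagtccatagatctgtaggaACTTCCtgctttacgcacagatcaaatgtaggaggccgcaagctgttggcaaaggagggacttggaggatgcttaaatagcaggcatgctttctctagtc

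GGAAGT was in 4 of the 8 promoters, those printed, and in 19.7% of all 32851 promoters of the same length, on either strand. The longer GAGGAAGT, which overlaps it, was in the C1qc window and in 2.44% of all promoters, and the shorter GAGGAA in those of C1qb, C1qc, Axl and Cd68 (23.3% of all). TGCTGA, part of the recognition element of Maf factors, was in the windows of C1qb and Lyz2 and in 16.1% of all. TGAGTCA, the AP-1 motif, was in that of Cd68 (4.46% of all). None of the 8 windows held TTCCGGTT (0.874% of all), TGCTGAC (3.81%), CACGTG (6.02%), TCACGTGA (0.785%), TGACGTCA (1.55%) or TATAAA (12.4%). These 11 motifs were chosen after the sequences were seen, and a match is a description of letters. The Lyz1 and Lyz2 windows were identical at 92 of the 100 bases nearest the start, and at 79.4% of the 252 columns of an alignment of the whole windows with gaps.

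C1qb and C1qc, which encode the B and C chains, were near or below the level of dim probe sets in WT and above it on both REL arrays. The brightest C1qb probe set, 1437726_x_at, had signals of 531 and 786 in REL and 26.2, 27.0 and 3.91 in WT. Its difference was 4.32 (SE 0.52) on the log2(signal + 16) scale, REL minus WT, the scale of all differences below. The other C1qb probe sets had signals of 426 and 506 in REL, against 9.68, 27.5 and 5.15 in WT, and of 96.6 and 57.2 in REL, against 3.56, 3.93 and 2.64 in WT. All 3 C1qb probe sets thus separated the groups, with differences of 4.32, 4.07 and 2.23, and over the 5 arrays their profiles correlated at Pearson r of 0.954 to 0.99. The 2 brighter ones, 1437726_x_at and 1434366_x_at, carry the suffix _x_at, given where probes also match other transcripts. Which transcripts those are was not checked. The third, 1417063_at, has no such suffix, and its mean log2 value was below the level of dim probe sets.

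C1qc had signals of 106 and 52.7 in REL and 0.669, 1.43 and 1.61 in WT. The difference was 2.41 (SE 0.31). C1qa, which encodes the A chain, had 26.6 and 4.35 in REL and 3.01, 6.66 and 3.94 in WT. REL 1 alone lay above the WT arrays, and REL 2 lay inside the WT range, so that C1qa overlapped between the groups (0.52, SE 0.41) although it is the neighbour of C1qc on chromosome 4 in RefSeq. C1qa has 1 probe set, which was below the level of dim probe sets on 4 of the 5 arrays. Without REL 1 its difference was −0.01 and without REL 2 it was 1.06.

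**Figure D1:**
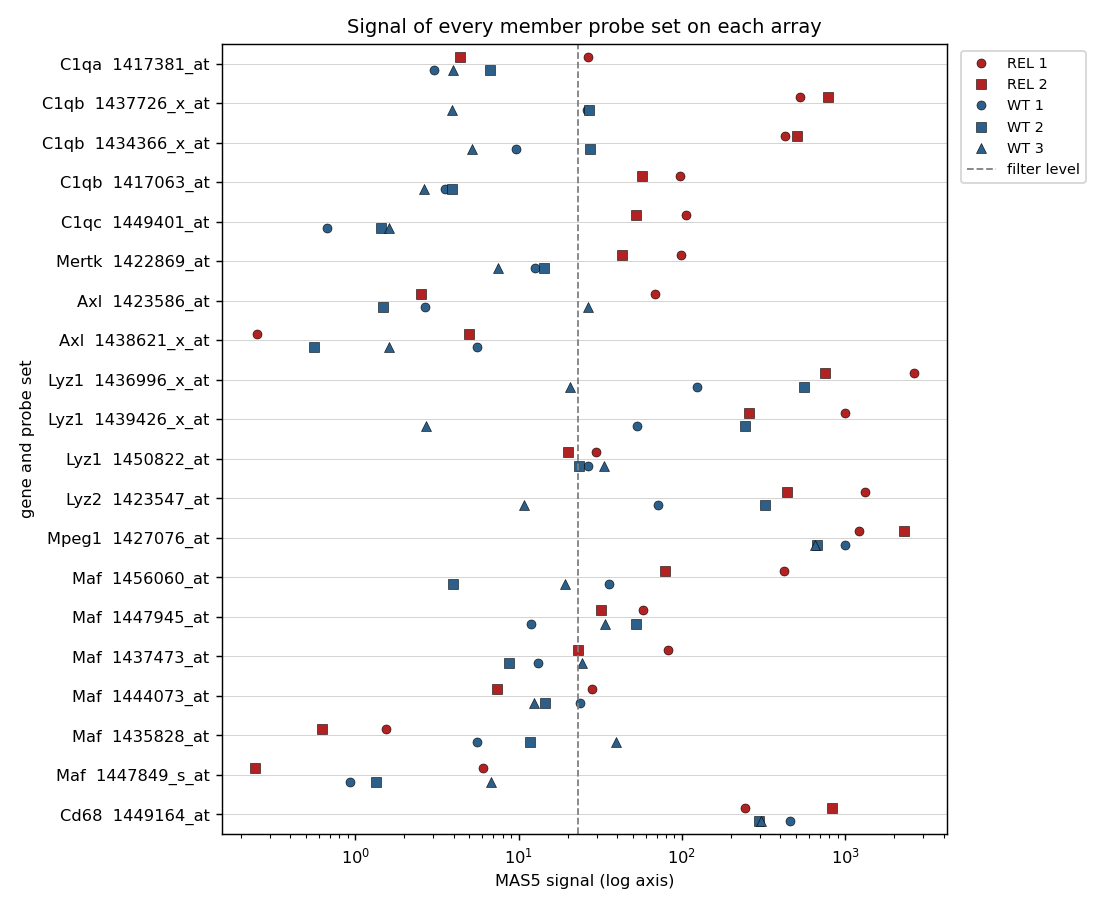
MAS5 signal on a log axis for each of the 20 probe sets of the 10 genes (rows), with 1 symbol per array, REL in red and WT in blue, and the level of dim probe sets (23.1) as a dashed line. The REL symbols lie to the right of every WT symbol in 10 rows, which include all 3 C1qb rows, and to the left in 1 row, a Maf probe set.

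Mertk and Axl encode receptor tyrosine kinases that bind apoptotic cells through the bridging proteins Gas6 and Pros1. Mertk had signals of 98.1 and 42.7 in REL and 12.6, 14.3 and 7.53 in WT, and REL lay above WT on both arrays. Its difference was 1.58 (SE 0.38). Axl, in its brighter probe set, had 68.5 and 2.54 in REL and 2.67, 1.47 and 26.7 in WT. REL 1 was the highest array and REL 2 was among the lowest, and the spread between the REL arrays, 2.19 log2 units, was larger than the difference between the groups (0.72, SE 0.98, with −0.38 without REL 1 and 1.81 without REL 2). The other Axl probe set was at most 5.55 on all 5 arrays, with a difference of 0.00.

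Lyz2 encodes the lysozyme of macrophages and neutrophils and Lyz1 the lysozyme known from Paneth cells of the gut. Lyz2 had signals of 1318 and 442 in REL and 71.0, 321 and 10.8 in WT. REL lay above WT on both arrays, but the WT arrays alone spanned 3.65 log2 units, more than the difference of 3.08 (SE 1.48). The brightest Lyz1 probe set, 1436996_x_at, had 2622 and 749 in REL and 124, 562 and 20.8 in WT, with a difference of 3.31 (SE 1.62) and a WT span of 3.97 log2 units. A second Lyz1 probe set, 1439426_x_at, had 997 and 258 in REL and 52.7, 244 and 2.69 in WT, a difference of 2.92 (SE 1.58). Over the 5 arrays the profiles of these 2 Lyz1 probe sets correlated with that of Lyz2 at r of 0.9997 and 0.997. Both carry the suffix _x_at, which Affymetrix gives to probe sets whose probes also match other transcripts. The third Lyz1 probe set, 1450822_at, had 29.7 and 20.2 in REL and 26.7, 23.4 and 33.5 in WT, a difference of −0.10 (SE 0.18), and its profile correlated with that of Lyz2 at r of −0.462. The signal of the 2 _x_at probe sets therefore cannot be assigned to Lyz1 rather than Lyz2.

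Among the WT arrays Lyz2 was highest on WT 2 and lowest on WT 3. Of 9 neutrophil markers, 6 had WT 2 as the highest WT array and 2 also had WT 3 as the lowest, S100a8 and S100a9, the subunits of calprotectin, which were picked out after their values were seen. WT 2 was also the highest WT array in 5 of 7 B cell markers and 6 of 8 germinal centre B cell markers. In 2 markers of each of these lists WT 3 was the lowest as well, so the order was not particular to neutrophil markers. S100a9 had 253 and 3.98 in REL and 494, 789 and 13.8 in WT, and S100a8 had 55.9 and 17.8 in REL and 187, 301 and 41.6 in WT. On the REL arrays both calprotectin genes lay below WT 1 and WT 2, unlike Lyz2 and the _x_at probe sets of Lyz1. The antimicrobial peptide gene Camp, from the same list, ran otherwise, with 28.5 and 40.3 in REL and 2.68, 32.7 and 25.0 in WT (0.58, SE 0.54, limma adjusted p = 0.832). The part of neutrophil RNA in the lysozyme values was not tested.

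**Figure D2:**
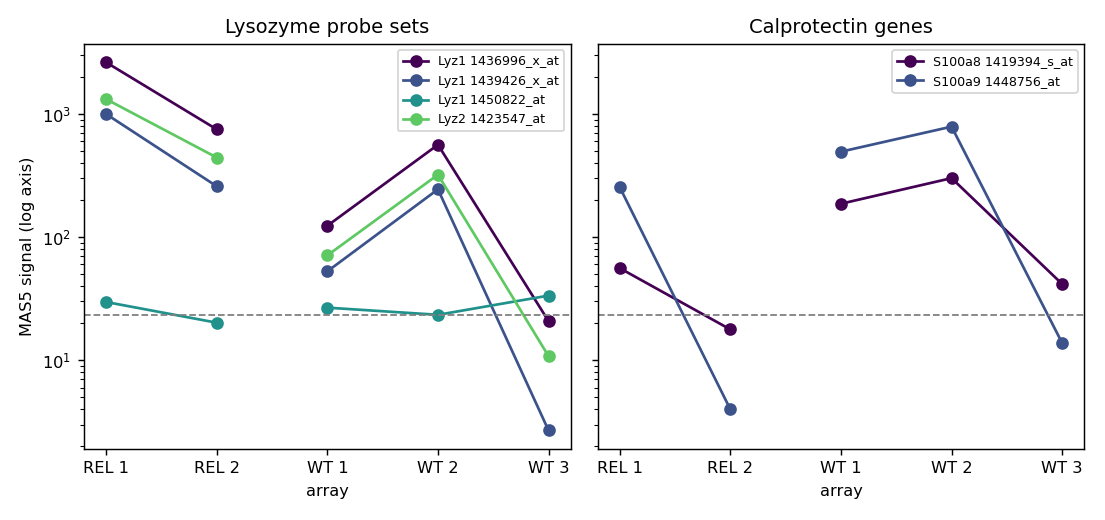
MAS5 signal on a log axis by array (REL, then WT) for the 4 lysozyme probe sets (left) and the 2 calprotectin genes (right). Each line joins the values of 1 probe set within a group, and the dashed line is the level of dim probe sets (23.1). Lyz2 and both _x_at probe sets of Lyz1 run in parallel, and Lyz1 1450822_at stays between 20.2 and 33.5.

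Mpeg1 and Cd68 were the 2 genes of the 10 whose brightest probe set was above the level of dim probe sets on every array of both groups. Mpeg1 encodes perforin-2, a pore-forming protein of the phagosome, and had 1211 and 2293 in REL and 1002, 674 and 648 in WT. REL lay above WT on both arrays, REL 1 by a small margin, and the difference was 1.12 (SE 0.42). Without REL 2 it was 0.66 and without REL 1 it was 1.57. Cd68, a glycoprotein of the lysosome membrane, had 242 and 833 in REL and 460, 297 and 303 in WT. REL 1 was the lowest array and REL 2 the highest, so the groups overlapped (0.37, SE 0.69, with −0.49 without REL 2 and 1.23 without REL 1).

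Maf encodes the transcription factor c-Maf, which is known in macrophages and also in T follicular helper cells, and its 6 probe sets did not run alike. The brightest, 1456060_at, had 420 and 79.3 in REL and 35.7, 3.96 and 19.1 in WT, a difference of 2.62 (SE 0.97) without overlap. One probe set, 1435828_at, had 1.53 and 0.624 in REL and 5.53, 11.8 and 39.5 in WT, so that REL lay below WT (−0.91, SE 0.53). The remaining 4 overlapped between the groups, with differences of −0.02 to 1.02. The mean over the 6 probe sets differed by 0.52. Without REL 1 the difference of 1456060_at was 1.53, still without overlap, and another probe set, 1447945_at, was then the brightest, at 0.07. Without REL 2 the difference of 1456060_at was 3.72. Of 11 T cell markers, 7 were below the level of dim probe sets on both REL arrays, among them Cd3d, Cd3e, Cd3g and Cd4. Cd247, the zeta chain of the T cell receptor complex, was bright, with 630 and 168 in REL and 307, 16.3 and 95.3 in WT (1.72, SE 0.95, limma adjusted p = 0.695), and REL 1 was the highest array as in Maf 1456060_at. Of the 4 Cd247 probe sets, 2 lay above 0 and 2 below. REL 1 was the highest array in 3 of the 11 T cell markers. Lat went the other way, with 26.4 and 11.7 in REL and 111, 14.9 and 160 in WT (−1.37, SE 0.74, limma adjusted p = 0.692). Cd8a was at −0.04 (SE 0.58) and Icos at 0.21 (SE 0.50). The summed signal of 11 T cell markers ranged over 338 to 892 in REL and 293 to 624 in WT. The part of T cell RNA in the Maf values was not tested.

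Taking the brightest probe set of each gene with no filter, 7 of the 10 genes (C1qb, C1qc, Mertk, Lyz1, Lyz2, Mpeg1 and Maf) had both REL arrays above every WT array. Lyz1 is counted here by 1436996_x_at, whose signal cannot be told from that of Lyz2, and with Lyz1 and Lyz2 counted once it was 6 of 9. Over all genes with no filter this held for 8.06%, and the reverse, both REL arrays below every WT array, which held for 0 of the 10 genes, for 14.6%. Over probe sets it held for 10 of 20, against 8.68% of all probe sets with 1 symbol, and the reverse for 1 of 20, against 14.1%. The comparison that chose the genes is the same, so nothing is read from these counts. The median difference over the 10 genes was 2.00 and over the genes that passed the filter on dim probe sets (12083 genes) −0.07. Of the 10 genes, 7 passed that filter, and C1qa, C1qc and Axl did not, although C1qc passes when probe sets are filtered by mean raw signal. Mertk was below the level of dim probe sets on all 3 WT arrays and passed through its REL signals. The mean log2 value over the WT arrays was also below that level for C1qb 1437726_x_at and Maf 1456060_at, with 2 and 1 WT arrays above it. These probe sets too passed through their REL signals. For the genes that were dim in WT, the size of a difference depends on the constant added before the logarithm: with 1 and 64 added in place of 16, C1qc was at 5.11 and 1.11, C1qb at 5.38 and 3.11, Mertk at 2.45 and 0.80 and Mpeg1 at 1.13 and 1.07.

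**Figure D3:**
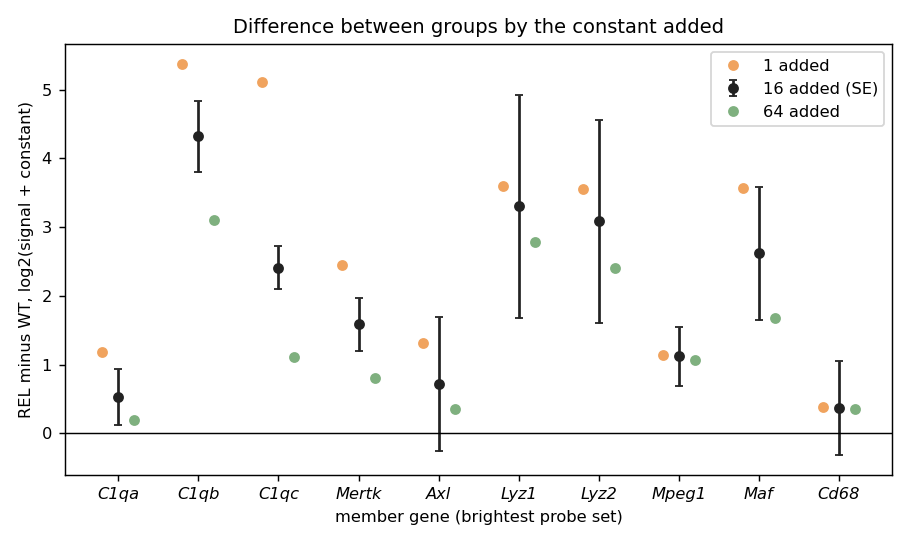
Difference between the groups, REL minus WT, in log2(signal + constant) for the brightest probe set of each of the 10 genes, with 1, 16 or 64 added, and the SE (2 REL and 3 WT arrays) for 16. C1qc moves from 5.11 to 1.11 as the constant grows, while Mpeg1, bright on all arrays, stays between 1.07 and 1.13.

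The REL arrays differed from each other. In 7 of the 10 genes REL 1 was the higher array, most in Maf and Axl (by 2.19 log2 units each), followed by Lyz1 (1.79) and Lyz2 (1.54), C1qa (1.06), Mertk (0.96) and C1qc (0.83). In Cd68, Mpeg1 and C1qb REL 2 was the higher, and REL 1 minus REL 2 was −1.72, −0.91 and −0.55. The 10 genes did not share 1 profile, and across the 5 arrays r between pairs of the 10 genes ran from −0.639 (Axl and Cd68) to 0.9997 (Lyz1 and Lyz2), with 0.977 for C1qc and Mertk and 0.529 for C1qa and C1qb. These points share their arrays, and r is given as a description.

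Some other macrophage markers were high on the same arrays. Of 15 macrophage markers on the array outside the 10 genes, 8 were higher on REL 1 and REL 2 than on any WT array. This held for 8.06% of all genes with no filter. The reverse held for 1 of the 15, against 14.6% of all genes with no filter. Among the 8, Marco lay near the level of dim probe sets, with 27.3 and 23.7 in REL and 3.67, 23.3 and 14.2 in WT. The marker lists were chosen with earlier results of these data known, so nothing is read from these counts. The summed signal over all 15 was 2211 to 3249 in REL and 383 to 642 in WT. Csf1r, the receptor for colony-stimulating factor 1, had 565 and 528 in REL and 23.6, 8.18 and 33.1 in WT. Timd4, Cd163, Siglec1 and Cd14 were highest in REL 1 and not separated in REL 2, as were C1qa and Axl. Timd4, a phosphatidylserine receptor, had 173 and 15.0 in REL and 7.03, 3.40 and 28.5 in WT. Cd163, the haemoglobin scavenger receptor, had 133 and 2.02 in REL and 1.64, 2.61 and 45.4 in WT. Adgre1, which encodes F4/80, went the other way, with 120 and 116 in REL and 154, 435 and 161 in WT, and Vsig4 was at most 14.0 on all 5 arrays. The sort was for germinal centre B cells, and its purity was not tested here. In whole sorted samples, more cells of a type and more RNA per cell cannot be told apart. Which cells the signal of the 10 genes came from, sorted B cells included, was not tested.

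The sums of the other cell type lists did not separate the arrays in the same way, and a sum follows its brightest genes. By gene, REL was wholly higher in 2 of 7 dendritic cell and 2 of 6 monocyte markers, and wholly lower in 0 of each. For 8 stromal and follicular dendritic cell markers the counts were 2 higher and 1 lower. They were 1 and 2 for 6 erythroid markers, and 0 and 1 for 9 neutrophil markers. Csf1r is on both the macrophage and the monocyte list. Nothing is read from these counts either. The summed signal of 9 neutrophil markers was 125 to 421 in REL and 198 to 1368 in WT, that of 6 monocyte markers 1953 to 2308 in REL and 1238 to 2169 in WT, and that of 7 dendritic cell markers 1259 to 2004 in REL and 721 to 1374 in WT. For 8 stromal and follicular dendritic cell markers it was 312 to 719 in REL and 196 to 441 in WT, and for 6 erythroid markers 87.9 to 149 in REL and 202 to 574 in WT. Of these lists the macrophage and erythroid sums did not overlap between the groups, the first higher and the second lower in REL. The brightest erythroid marker was Hbb-b2, with 82.1 and 35.5 in REL and 290, 532 and 88.0 in WT. Hba-a1 went the other way below the level of dim probe sets, with 12.8 and 12.1 in REL and 1.22, 5.18 and 5.92 in WT.

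**Figure D4:**
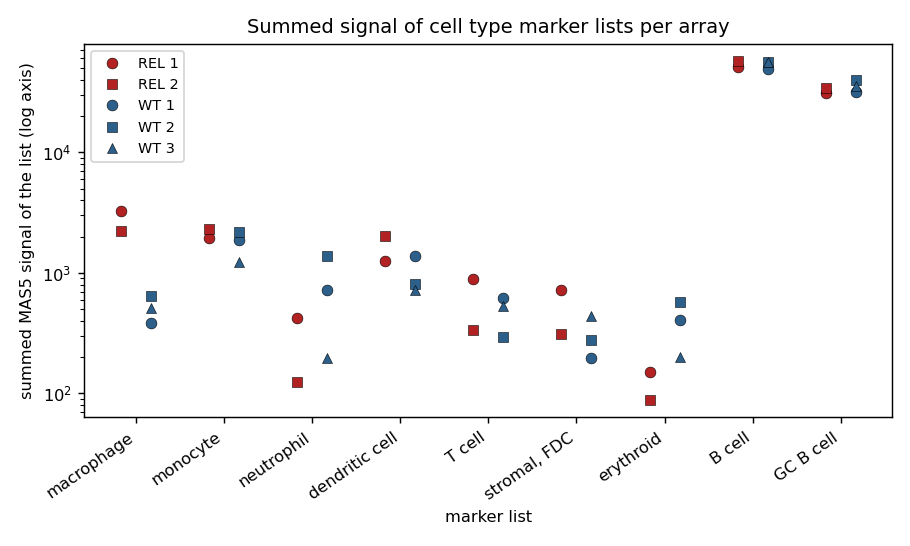
Summed MAS5 signal on a log axis of each cell type marker list per array, REL in red to the left of WT in blue, with the brightest probe set of each gene and without the 10 genes described here. The macrophage sums are 2211 and 3249 in REL and 383 to 642 in WT, while the B cell sums of all arrays lie between 49541 and 57238.

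The genes whose profile over the 5 arrays was most like the mean of the 3 C1q genes were sought among 2079 genes with a range of at least 2 log2 units. The likeness is given as a description over 5 arrays that share their groups. Mrc1, the macrophage mannose receptor, had the highest r (0.999), with 249 and 156 in REL and 10.4, 17.6 and 3.78 in WT. Vcam1, which encodes the ligand of the integrin VLA-4, followed (0.992), with 671 and 390 in REL and 2.46, 0.833 and 2.01 in WT. The list went on with Rrad, a Ras-related GTPase gene (0.986), Nmrk1, a nicotinamide riboside kinase gene (0.985), the sulfotransferase gene Chst1 (0.983), 3300002A11Rik (0.982), the iron exporter gene Slc40a1 (0.980), Ttc7b (0.980), Smc2os (0.965) and Gm11346 (0.957). Ttc7b had 938 and 599 in REL and 268, 295 and 184 in WT, and was above the level of dim probe sets on every array, as were Chst1, Nmrk1, 3300002A11Rik and Gm11346.

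**Figure D5:**
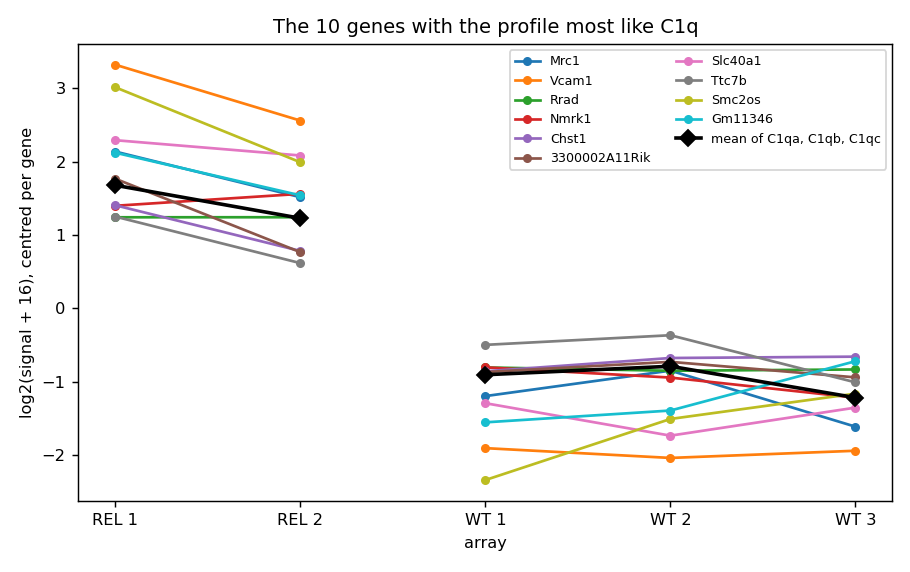
Profiles of the 10 genes most like C1q, as log2(signal + 16) centred on each gene's mean over the 5 arrays (REL, then WT), with the mean of C1qa, C1qb and C1qc in black. Each line joins the arrays of a group, and every profile is above 0 on both REL arrays and below 0 on the 3 WT arrays.

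Genes that act with the 10 in uptake, complement, killing and lysosomes were tested as part of all 12083 genes, in 5 lists with 73 genes tested of 118 listed. By limma, 0 of the 73 passed an adjusted p of 0.05 in either direction, where 0.00828% of all genes passed as higher in REL (Vcam1, limma adjusted p = 0.0389) and 0% as lower. Vcam1 was below the level of dim probe sets on every WT array and passed the filter through its REL signals. It did not pass the adjusted p threshold when probe sets were filtered and ranked by mean raw signal in place of mean log2 value (limma adjusted p = 0.0656). At an unadjusted p under 0.05, 6 were higher and 5 lower in REL, against 3.24% and 4.99% of all genes. REL lay wholly above WT in 11 of the 73 (15.1%) and wholly below in 9 (12.3%), against 9.53% and 14.3% of all genes. The median difference of the 73 was 0.07, against −0.07 for all genes. Median centring of the arrays moves the median of all genes to 0.10, so differences of the lists are read against that of all genes.

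Of 28 genes of apoptotic cell uptake tested, 15 were above 0 and 13 below, with a median of 0.05. Itgb3, the integrin beta 3 chain that binds Mfge8-coated cells with its alpha v partner, had 1292 and 1211 in REL and 1965, 2660 and 2165 in WT (−0.84, SE 0.25, limma adjusted p = 0.425), and 1 of its 2 probe sets ran in the opposite direction. Rxra, the partner of nuclear receptors that drive Mertk in macrophages, had 89.8 and 132 in REL and 27.6, 13.1 and 34.3 in WT (1.65, SE 0.53, limma adjusted p = 0.436), with 1 of 3 probe sets the other way. Ppard, such a nuclear receptor, was at −1.61 (SE 0.58). It was below the level of dim probe sets on both REL arrays (6.05 and 2.53) and passed the filter through its WT signals. Sirpa, the receptor for the don't-eat-me signal Cd47, was at 0.83 (SE 0.32). Sirpa had 1897 and 1286 in REL and 846, 791 and 983 in WT without overlap, and its limma adjusted p was 0.519.

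Of 9 complement genes tested, 4 were above 0 and 5 below (median −0.16, and 0.01 with median centring of the arrays), and none separated the groups in either direction. Itgax, a chain of complement receptor 4, was at 1.22 (SE 0.68), and C2, which is cleaved after C1q has bound, at −0.87 (SE 0.63). C1qbp, a mitochondrial protein first found by its binding to C1q, was at −0.16 (SE 0.17), and the complement regulator gene Cr1l at 0.17 (SE 0.20), with 2 of 3 probe sets the other way. Their limma adjusted p ran from 0.695 to 0.883.

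Of 11 pore-forming and antimicrobial genes, 6 were above 0 and 5 below, with a median of 0.01. Pglyrp1, a peptidoglycan recognition protein that kills bacteria, had 1912 and 1733 in REL and 627, 655 and 652 in WT, a difference of 1.47 (SE 0.31) that was not past the threshold (limma adjusted p = 0.248). Perforin (Prf1), of the same protein family as Mpeg1, had 555 and 616 in REL and 411, 175 and 227 in WT (1.15, SE 0.52, limma adjusted p = 0.611), with 1 of 2 probe sets the other way. The membrane attack genes C8a (−1.80, SE 0.62) and C8b (−0.82, SE 0.51) lay below 0.

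Of 11 Maf family and myeloid transcription factor genes, 8 were above 0 and 3 below (median 0.09). Spic, the factor of red pulp macrophages, had 89.3 and 135 in REL and 9.24, 1.18 and 15.1 in WT, at 2.40 (SE 0.50, limma adjusted p = 0.248). It was below the level of dim probe sets on every WT array and passed the filter through its REL signals. Spi1, which encodes PU.1 and is used by B cells and macrophages alike, had 444 and 694 in REL and 403, 413 and 341 in WT (0.51, SE 0.45, limma adjusted p = 0.816). Klf4 was at −1.23 (SE 0.52), with 1 of 2 probe sets the other way, and the small Maf gene Maff at −0.87 (SE 0.50). Klf4 was below the level of dim probe sets on both REL arrays (8.96 and 10.4) and passed the filter through its WT signals.

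Of 14 lysosome genes, 8 were above 0 and 6 below, with a median of 0.09. Plbd2, a phospholipase B-like protein of the lysosome lumen, had 335 and 874 in REL and 122, 42.9 and 204 in WT (2.21, SE 0.71, limma adjusted p = 0.436). Scarb2, a lysosome membrane protein, was at 0.66 (SE 0.32), with 1 of 2 probe sets the other way, Psap, the precursor of saposins, at 0.35 (SE 0.20) and the hexosaminidase gene Hexa at 0.47 (SE 0.30). As for Cd68, REL 2 was the highest of the 5 arrays for Plbd2, Scarb2 and Hexa, while for Psap it was REL 1.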

How the data were processed

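Sorted germinal centre B cells were measured on 5 single-colour Affymetrix arrays (2 REL, 3 WT), from amplified RNA, per the labels' protocols. The authors deposited MAS5 signal intensity values on a linear scale, and MAS5, with no version, comes from the submitters' processing notes. MAS5 scores each array by itself and subtracts mismatch probes, so low signals vary widely. Detection calls were not used here. The platform annotation gave the gene of each probe set (34958 of 45101 with 1 symbol, 932 with several, 9211 with none listed), and those with 1 symbol were kept.

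Signals were taken as log2(signal + 16) without further normalization. Probe sets in the lowest 40% by mean log2 value (chosen over mean raw signal after both had been run) were left out, the brightest per gene was kept, and limma 3.58.1 (R 4.3.3) was fitted to 12083 genes (eBayes with a mean-variance trend, 6.84 prior and 3 residual degrees of freedom, Benjamini-Hochberg adjustment, threshold 0.05, two-sided). The fit was tested on simulated data. For the 10 genes described, differences were computed on every probe set without the filter and with no test, and the SE comes from the pooled variance of that probe set alone.

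The members and gene lists were chosen with earlier results of these data known. Named were all 10 genes, up to 4 genes per list of related genes by smallest unadjusted p, and the 10 genes most like the C1q profile. Individual marker genes were named after their values were seen. Alternatives were adding 1 or 64, dropping none or 60% of probe sets, median centring, quantile normalization, averaging probe sets, no trend, the replicate number as a block and each array left out, with filtering by mean raw signal and fixed probe sets for the 10 genes added later. Tables and plots were made in Python 3.11.15 (numpy 2.4.6, pandas 2.3.3, matplotlib 3.10.9, scipy 1.17.1). The number of arrays limits the precision.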

Additional observations from a re-analysis of the deposited data

How the results depend on the processing

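The median difference over the 10 genes, 2.00 with 16 added, was 3.00 with 1 and 1.09 with 64 added, and 1.35 to 2.17 under the other scalings, the mean of probe sets and the replicate block. WT 3 has no REL array of its number. The replicate block therefore gave the same differences as leaving out WT 3 (median 1.83) and is no separate check on them. Leaving out 1 array gave 1.40 to 2.45. The number of the 10 genes with both REL arrays above every WT array was 6 to 8 under those settings and 7 to 9 with 1 array left out. While the probe sets stay the same, leaving out an array can only keep or raise this count. Without a REL array the count rests on the 1 REL array left, so the range of 7 to 9 is no check on the separation. C1qa joined them with quantile normalization, with median centring and without REL 2 or WT 2, Maf left them with the mean of probe sets and, as its brightest probe set changed, without REL 1, and Cd68 joined without REL 1 and Axl without REL 2. The sign of C1qa (−0.01) and Axl (−0.38) turned without REL 1, and that of Cd68 (−0.49) without REL 2. Keeping the probe sets chosen on all arrays, a setting added once the data had been seen, gave a median of 1.55 and a count of 8, Maf among them, without REL 1. Median centring moved the median of all genes to 0.10.

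Of all genes, 1 was called higher and 0 lower. The higher count was 0 with 1 or 64 added, with no filter, with a 60% filter, with the mean of probe sets and without the trend, 3 with median centring, and 0 to 3 with 1 array left out. The lower count was 1 with quantile normalization and 0 to 5 with 1 array left out. With the replicate number as a block, 10 genes were called higher and 8 lower. Deviations of same-numbered arrays correlated at −0.0417 and −0.0183. With 2 REL arrays the REL deviations mirror each other, so these are not separate checks. They cannot settle whether the numbers pair the arrays. The data were first run with probe sets filtered and ranked by mean raw signal. This tested 12024 genes and called 0 higher and 0 lower (392 and 588 at an unadjusted p under 0.05 by limma), with Vcam1 at an adjusted p of 0.0656 and 8 of the 10 genes past the filter. Mean log2 value was settled on after that run, to follow an earlier processing of these data, so the single call rests on a choice made with both results known. The related genes had 0 calls in every setting run.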
